A study of Rattus norvegicus with 23 samples.

Results

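The 9 genes described here carry out renal ammoniagenesis and the glutamine metabolism around it: the glutamine carrier Slc38a3, the liver-type glutaminase Gls2, glutamine synthetase Glul, glutamate dehydrogenase Glud1, the aspartate aminotransferases Got1 and Got2, the alanine aminotransferase Gpt2, and the phosphoenolpyruvate carboxykinases Pck1 and Pck2. They were taken from the count table by gene symbol, and all 9 were among its 30452 genes. Of these, 7 were abundant enough to be tested, among 14777 genes tested. Slc38a3 and Pck1 were too scarce for this, and are given by their counts, with a fit without the filter on low counts for Slc38a3.

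In acidosis the kidney takes up more glutamine, and its proximal tubule releases ammonium from it. Glutaminase removes the amide nitrogen and glutamate dehydrogenase the amino nitrogen, and the carbon left over passes through the citric acid cycle and phosphoenolpyruvate carboxykinase into glucose or carbon dioxide. The response known from the rat kidney in metabolic acidosis is a rise of Slc38a3, of Glud1 and of Pck1 and a fall of Glul. The enzyme of Glul binds ammonium to glutamate and so makes glutamine. Aminotransferases move the amino group of glutamate onto other keto acids, and Got1 and Got2 also serve the malate-aspartate shuttle.

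The samples came from rat kidney cell lines, NRK-52E (labelled NRKE, epithelial) and NRK-49F (labelled NRKF, fibroblasts). Cells stood for 24 h in medium lacking serum, then for 48 h at pH 7.4 or at pH 6.0, which was set with hydrochloric acid, and their poly(A) RNA was sequenced. There were 6 samples of NRK-52E at each pH, 6 of NRK-49F at pH 7.4 and 5 at pH 6.0. The labels further divide them into sample groups, 1 and 3 in NRK-52E and 4 and 6 in NRK-49F, each with 3 samples per pH except for 2 of group 4 at pH 6.0. The labels do not say what a sample group stands for or whether samples are separate cultures, so p-values measure the spread between these samples. The main fit, over all 23 samples, estimates the spread of each gene from both lines together and has no term for the sample group. Where the sample groups of NRK-52E respond unequally, this widens the SE of NRK-49F too. Each line descends from a normal rat kidney culture, and no whole kidney or animal was measured.

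Total counts ranged from 16412564 to 34250535 per sample. Levels are given in FPM, read pairs per 1000000 of the library size after edgeR had scaled it, and 3 counts, taken as the least that the depth can show by counting alone, were worth 0.0839 to 0.203 FPM. Since FPM is not divided by gene length, levels are compared between samples and never between genes. Markers of the proximal tubule were scarce in both lines: the endocytic receptor gene Lrp2 had at most 9 counts in any sample, and Hnf4a, a transcription factor of tubular and liver epithelium, at most 3. Of 17 such markers 6 were tested. The summed level of all 17 in NRK-52E was 119 to 127 FPM at pH 7.4 and 38.9 to 144 FPM at pH 6.0. Of the 6 tested, 3 fell and 1 rose there, or 50% and 16.7%. Among all genes tested in NRK-52E, 36.6% were lower and 24.7% higher. Anpep, a brush border peptidase gene, fell to 0.110 times the level at pH 7.4 (edgeR adjusted p = 1.29e-10). Pdzk1, a scaffold gene, fell to 0.444 times (adjusted p = 4.71e-05). Ggt1 rose 1.48-fold (adjusted p = 0.0451). Aqp1, not called over both sample groups, went from a mean of 70.5 to 106 FPM in sample group 1. In sample group 3 it went from 77.8 to 27.3 FPM. In NRK-49F the summed level rose from 444 to 665 FPM at pH 7.4 to 1170 to 1631 FPM at pH 6.0, nearly all of it from Aqp1 and Ggt1, genes of the pathway lists. Among epithelial markers Cdh1 had at most 12 counts, Epcam at most 1, and Esrp1 was listed at 0 throughout, and only the keratin gene Krt8 was tested. Krt8 fell at pH 6.0 by 1.17 on the log2 scale in NRK-52E (adjusted p = 1.02e-07) and by 0.57 in NRK-49F (adjusted p = 0.00409), and it was lower in NRK-52E than in NRK-49F at pH 7.4 (log2 difference -0.75) and at pH 6.0 (-1.35). The lines were told apart by fibroblast genes. Of 10 tested, 9 were lower and 1 was higher in NRK-52E than in NRK-49F at each pH. Of all genes, 33.9% were lower at pH 7.4 and 38.9% at pH 6.0. Pdgfra was at 179 to 380 FPM in NRK-49F. In NRK-52E it reached 4.73 FPM in sample A021 at pH 7.4 and between 0 and 2.21 FPM in the other samples. Sample A021 also had the most counts of Col1a2, Lum and Vcam1 among NRK-52E samples. Each of these genes was at most 52.9 FPM in NRK-52E, so most of the fibroblast sum there came from other listed genes. The summed fibroblast list fell with pH in both lines, from 5115 to 8366 FPM at pH 7.4 to 1977 to 3274 FPM at pH 6.0 in NRK-52E, and from 10868 to 14113 FPM to 7556 to 10147 FPM in NRK-49F. The summed endothelial and immune list rose from 22.6 to 33.6 FPM to 218 to 252 FPM in NRK-49F, nearly all of it from Cd68, a lysosomal protein gene, while Cdh5, Kdr and Ptprc stayed at or near 0. The part of these marker shifts in the results on the 9 genes was not tested.

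Promoter windows of 3 genes are shown because they hold sequence elements tied to the amino acid response or to Pck1, in the 250 bases before and 50 bases after the RefSeq transcript start (build GRCr8, not the build of the counts). Capitals mark the match. In Got1 (chr1:252329822-252330121, minus strand) and Pck2 (chr15:32997603-32997902, plus strand) it is an element of the type bound by ATF4, a factor of the amino acid response, searched as TGATGNAA on both strands. In Pck1 (chr3:182348322-182348621, plus strand) it is the cAMP response element of this gene, searched as TTACGTCA. As the letters searched are those of this gene's own element, its match was fixed in advance.
Got1: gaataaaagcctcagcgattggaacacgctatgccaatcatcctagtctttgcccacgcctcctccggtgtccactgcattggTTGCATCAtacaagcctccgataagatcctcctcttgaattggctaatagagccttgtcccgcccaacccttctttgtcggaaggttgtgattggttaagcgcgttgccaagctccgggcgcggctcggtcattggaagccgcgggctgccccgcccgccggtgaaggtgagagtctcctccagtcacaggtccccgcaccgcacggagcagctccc
Pck2: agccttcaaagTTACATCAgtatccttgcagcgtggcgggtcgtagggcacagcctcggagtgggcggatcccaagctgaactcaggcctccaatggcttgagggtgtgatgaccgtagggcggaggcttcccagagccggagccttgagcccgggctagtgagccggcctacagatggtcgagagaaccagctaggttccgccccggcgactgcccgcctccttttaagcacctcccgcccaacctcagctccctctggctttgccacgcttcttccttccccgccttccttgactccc
Pck1: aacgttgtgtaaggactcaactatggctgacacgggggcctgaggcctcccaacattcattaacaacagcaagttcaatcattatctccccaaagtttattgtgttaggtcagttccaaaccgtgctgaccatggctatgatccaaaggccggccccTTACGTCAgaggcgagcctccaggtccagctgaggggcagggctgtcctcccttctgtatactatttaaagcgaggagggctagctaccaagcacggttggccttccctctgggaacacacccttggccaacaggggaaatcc
The matches began 167, 239 and 93 bases before the transcript start. Of 33469 RefSeq rat windows of the same length, 3.98% held the ATF4-type element and 0.807% the Pck1-type element. Windows were at hand for 8 of the 9 genes, 10 windows in all, and no other window of the set held these elements, the consensus cAMP response element TGACGTCA (1.83% of all windows) or the palindromic HNF1 element (0.00299%). A match describes the letters of the window and not a bound site.

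**Figure D1:**
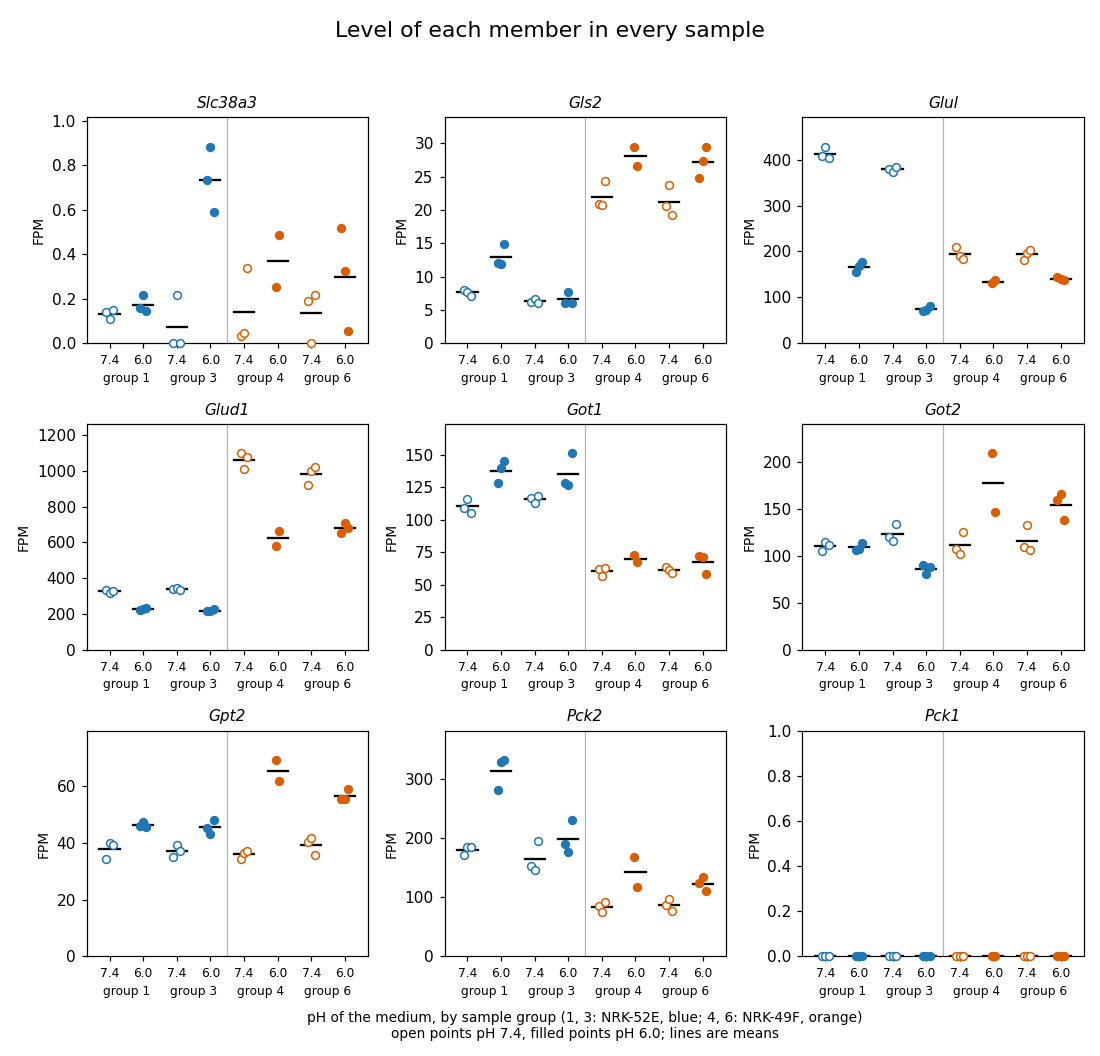
FPM of each of the 9 genes in each of the 23 samples (points), by sample group and pH, with the mean of each set as a line; each panel has its own vertical axis from 0. Glul and Glud1 lie lower at pH 6.0 in every sample group, Gls2 lies higher at pH 6.0 in sample group 1 but not in sample group 3, and Pck1 is at 0 in all 23 samples.

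The acidosis response of the set was mixed in both lines. In NRK-52E all 7 tested genes changed between pH 6.0 and pH 7.4 (edgeR quasi-likelihood test, adjusted p under 0.05), 4 higher and 3 lower, where 61.2% of all genes tested were called, 24.7% higher and 36.6% lower. In NRK-49F 5 of the 7 changed, 3 higher and 2 lower, against 28.9% of all genes (14.5% higher, 14.4% lower). Pck2 and Gpt2 rose and Glud1 and Glul fell in both lines, whereas Got2 fell in NRK-52E and rose in NRK-49F. The NRK-52E calls of Got2 and Gls2 and the NRK-49F call of Glul were lost in some alternative fits, which are given with each gene. The median log2 fold change of the 7 genes was 0.27 in NRK-52E, where that of all genes was -0.12, and 0.35 in NRK-49F, where it was 0.00.

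Slc38a3 (ENSRNOG00000016827, chromosome 8), which imports glutamine through the basolateral membrane of the tubule, gave few counts in any sample. In NRK-52E there were 5, 2, 4, 0, 4 and 0 counts at pH 7.4. At pH 6.0 it had 3, 4 and 5 counts in sample group 1 and 14, 16 and 12 counts in sample group 3. The higher counts at pH 6.0 thus lay in sample group 3. Summed there, 42 counts at pH 6.0 stood against 4 at pH 7.4, a depth-corrected ratio of 10.6 with an exact 95% counting interval of 3.84 to 40.7. In sample group 1 the ratio was 1.23 (0.498 to 3.09). In NRK-49F counts were 0 to 5 at pH 7.4 and 1 to 14 at pH 6.0, so that the pH groups overlapped. Summed over NRK-49F, the ratio was 3.00 (1.63 to 5.77), with 3.39 (1.26 to 10.05) in sample group 4 and 2.75 (1.23 to 6.73) in sample group 6. These intervals cover counting error only and lie above 1, as does that of sample group 3 but not that of sample group 1. When the low-count filter was dropped, the fit gave 2.04 (SE 0.71, adjusted p = 0.0210) in NRK-52E and 1.38 (SE 0.74, adjusted p = 0.216) in NRK-49F on the log2 scale. The change in sample group 3 did not differ from that in sample group 1 past the threshold (2.96, SE 1.43, adjusted p = 0.302). At these counts the size of a rise cannot be fixed.

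Gls2 (ENSRNOG00000031612, chromosome 7) encodes the glutaminase first known from liver. In NRK-52E its level at pH 7.4 was 8.03, 7.70 and 7.17 FPM in sample group 1 and 6.23, 6.71 and 6.06 FPM in sample group 3. At pH 6.0 it was 12.0, 12.0 and 14.8 FPM in sample group 1 and 6.08, 7.67 and 6.12 FPM in sample group 3. All 3 samples of group 1 at pH 6.0 stood above every other NRK-52E sample, and those of group 3 lay among the pH 7.4 samples. Over both sample groups Gls2 was 1.40-fold higher at pH 6.0 (log2 fold change 0.49, SE 0.17, adjusted p = 0.0162), a call that was lost without sample A026 of group 1 (0.33, adjusted p = 0.0771). Within sample group 1 it rose by 0.77 (SE 0.13, adjusted p = 4.96e-05), and within sample group 3 the value was 0.06 (SE 0.13, adjusted p = 0.718). In NRK-49F the level ranged from 19.2 over a median of 20.8 to 24.3 FPM at pH 7.4 and was 29.5, 26.6, 24.9, 27.4 and 29.4 FPM at pH 6.0. These pH groups did not overlap. Even so, the change of 0.35 (SE 0.17) missed the threshold in the fit over all samples, whose spread both lines share (adjusted p = 0.127). It passed with NRK-49F fitted alone (adjusted p = 0.00553) and with the sample group as a block (adjusted p = 0.0207). The pH change did not differ between the lines past the threshold (difference 0.14, SE 0.24, adjusted p = 0.690). Within NRK-52E the change was smaller in sample group 3 than in sample group 1 (difference -0.70, adjusted p = 0.0173), a call lost without sample A026 or A036. The Gls2 gene overlaps Spryd4 in the RefSeq annotation, and since no strand setting of the counting is named, reads of the shared part cannot be assigned to either with certainty.

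Glul (ENSRNOG00000049560, chromosome 13), glutamine synthetase, which binds ammonium to glutamate and is known to decline in the acidotic kidney, had the largest change of the 7 genes in NRK-52E. At pH 7.4 its level was 407, 428 and 403 FPM in sample group 1 and 379, 374 and 383 FPM in sample group 3. At pH 6.0 it was 155, 169 and 177 FPM in sample group 1 and 70.8, 72.2 and 82.3 FPM in sample group 3. Every sample at pH 6.0 lay below every sample at pH 7.4, and group 3 lay below group 1 at pH 6.0. The level at pH 6.0 was 0.306 times that at pH 7.4 (log2 fold change -1.71, SE 0.18, adjusted p = 1.88e-08). The fall was -1.30 (SE 0.08) within sample group 1 and -2.33 (SE 0.08) within sample group 3, and these differed (-1.03, SE 0.11, adjusted p = 1.02e-05). In NRK-49F Glul ranged from 182 over a median of 193 to 209.6 FPM at pH 7.4 and was 132, 137, 144, 139.5 and 138 FPM at pH 6.0, again with no overlap. Its fall there, -0.49 (SE 0.19), was just past the threshold in the fit over all samples (adjusted p = 0.0487) and missed it in 17 of the 23 fits that left out a sample, with an adjusted p of at most 0.0903. The spread in these fits is shared with NRK-52E, whose sample groups differed in Glul. In NRK-49F fitted alone the adjusted p was 3.51e-05. Within sample groups 4 and 6 the values were -0.53 (SE 0.09, adjusted p = 0.000147) and -0.46 (SE 0.08, adjusted p = 0.000190). The fall was larger in NRK-52E than in NRK-49F (difference -1.22, SE 0.25, adjusted p = 0.000477). RefSeq names 2 pseudogene copies of Glul and 4 genes that overlap it, with which reads may be shared.

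Glud1 (ENSRNOG00000057367, chromosome 16) encodes the mitochondrial glutamate dehydrogenase, the second ammonium-releasing step, which is known to rise in the acidotic kidney. Here it fell. In NRK-52E it ranged from 320 over a median of 334 to 344 FPM at pH 7.4 and from 215 over 226 to 235 FPM at pH 6.0. In NRK-49F it ranged from 923 over 1016 to 1097 FPM at pH 7.4 and was 582, 665, 651, 709 and 683 FPM at pH 6.0. The pH groups overlapped in neither line. The log2 fold change was -0.57 (SE 0.06, adjusted p = 3.21e-08) in NRK-52E and -0.63 (SE 0.07, adjusted p = 9.70e-08) in NRK-49F, that is, 0.674 and 0.644 times the level at pH 7.4. It was called lower in each of the sample groups, with values of -0.51 in group 1, -0.63 in group 3, -0.77 in group 4 and -0.53 in group 6. The changes of the lines did not differ past the threshold (0.07, SE 0.09, adjusted p = 0.599).

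**Figure D2:**
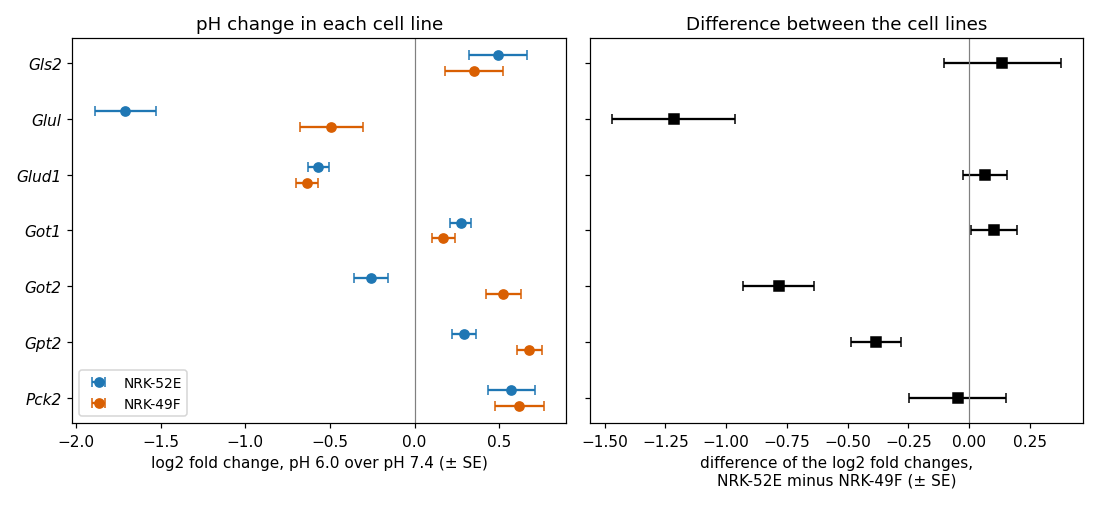
Log2 fold change at pH 6.0 over pH 7.4 of the 7 tested genes in NRK-52E (blue) and NRK-49F (orange) with its SE, left, and the NRK-52E minus NRK-49F difference with its SE, right. Glul, Got2 and Gpt2 have differences below 0 that passed the test, of -1.22, -0.78 and -0.38.

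Got1 and Got2 encode the cytosolic and the mitochondrial aspartate aminotransferase. Got1 (ENSRNOG00000016356, chromosome 1) ranged in NRK-52E from 105 over a median of 114 to 118 FPM at pH 7.4 and from 127 over 134 to 151 FPM at pH 6.0, with no overlap. In NRK-49F it ranged from 57.0 over 61.6 to 63.4 FPM at pH 7.4 and was 72.8, 67.6, 72.4, 71.5 and 58.2 FPM at pH 6.0, where only the last sample, A056, lay among those at pH 7.4. Got1 rose by 0.27 in NRK-52E (SE 0.06, adjusted p = 0.000819). In NRK-49F the value was 0.17 (SE 0.07, adjusted p = 0.0638), and without sample A056 it was 0.22 (adjusted p = 0.0130). The RefSeq annotation has a pseudogene that overlaps Got1 and a further gene named after it, with which reads may be shared.

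Got2 (ENSRNOG00000011782, chromosome 19) moved in opposite directions. In NRK-52E it was 105, 115 and 112 FPM in sample group 1 and 120.3, 116 and 134 FPM in sample group 3 at pH 7.4. At pH 6.0 it was 106, 107 and 113 FPM in sample group 1 and 90.7, 80.3 and 88.1 FPM in sample group 3. Only the samples of group 3 at pH 6.0 stood below all others. The fall over both sample groups was -0.26 (SE 0.10, adjusted p = 0.0292). It missed the threshold with DESeq2 (adjusted p = 0.0524), with NRK-52E fitted alone (-0.17, adjusted p = 0.119) and without any of the samples A035, A036, A037 or A038, with adjusted p-values of 0.0623 to 0.0843. Within sample group 1 the value was -0.02 (SE 0.12, adjusted p = 0.907) and within group 3 Got2 fell by 0.51 (SE 0.12, adjusted p = 0.00107). The difference between these sample groups missed the threshold (-0.49, SE 0.17, adjusted p = 0.0696) and passed it with DESeq2 (adjusted p = 0.0326), with NRK-52E fitted alone (adjusted p = 0.0119) and without sample A042 or A043 of NRK-49F. In NRK-49F it ranged from 102 over a median of 108 to 132 FPM at pH 7.4 and was 209, 146, 159, 166 and 138 FPM at pH 6.0, all above the pH 7.4 samples, a rise of 0.52 (SE 0.11, adjusted p = 0.000538). The difference between the lines was -0.78 (SE 0.15, adjusted p = 0.000140). RefSeq names 7 further genes or pseudogenes after Got2, and reads that map to several places were counted, so part of its counts may stem from copies.

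Within a sample, the log2 ratio of Got1 to Got2 counts rose in NRK-52E from -0.05 ± 0.08 at pH 7.4 to 0.49 ± 0.19 at pH 6.0 (SD, n = 6 each), and the ranges did not overlap. In NRK-49F it went from -0.90 ± 0.13 (n = 6) to -1.25 ± 0.16 (n = 5). Leaving out any sample kept the change between 0.48 and 0.58 in NRK-52E and between -0.39 and -0.28 in NRK-49F. The log2 ratio of Glul to Glud1 went from 0.24 ± 0.11 to -1.01 ± 0.60 in NRK-52E, a change of -1.25, and from -2.40 ± 0.08 to -2.25 ± 0.09 in NRK-49F, a change of 0.14. In NRK-52E Glul thus fell further than Glud1. No test was made of these ratios.

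Gpt2 (ENSRNOG00000059579, chromosome 19), the mitochondrial alanine aminotransferase, rose in both lines without overlap of the pH groups. In NRK-52E it ranged from 34.2 over a median of 38.1 to 40.1 FPM at pH 7.4 and from 43.03 over 45.8 to 48.1 FPM at pH 6.0. In NRK-49F it ranged from 34.3 over 36.8 to 41.9 FPM at pH 7.4 and was 69.3, 61.8, 55.3, 55.4 and 59.1 FPM at pH 6.0. The rise was 1.23-fold in NRK-52E (log2 fold change 0.29, SE 0.07, adjusted p = 0.000914) and 1.60-fold in NRK-49F (0.68, SE 0.07, adjusted p = 2.04e-07). It was smaller in NRK-52E than in NRK-49F (difference -0.38, SE 0.10, adjusted p = 0.00394). Sample groups 1 and 3 gave the same value, 0.29. Another RefSeq gene model overlaps Gpt2, with which reads may be shared.

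Pck2 (ENSRNOG00000018536, chromosome 15), the mitochondrial phosphoenolpyruvate carboxykinase, rose by 0.57 in NRK-52E (SE 0.14, adjusted p = 0.00103) and by 0.62 in NRK-49F (SE 0.15, adjusted p = 0.00228). In NRK-52E its level at pH 7.4 was 172, 186 and 186 FPM in sample group 1 and 154, 146 and 196 FPM in sample group 3. At pH 6.0 it was 281, 329.6 and 333 FPM in sample group 1 and 191, 177 and 231 FPM in sample group 3. The samples of group 1 at pH 6.0 stood above all others, and those of group 3 overlapped the pH 7.4 samples. Within group 1 Pck2 rose by 0.80 (SE 0.14, adjusted p = 0.000112) and within group 3 the value was 0.27 (SE 0.14, adjusted p = 0.107), a difference that missed the threshold (-0.52, SE 0.20, adjusted p = 0.104). In NRK-49F Pck2 ranged from 74.7 over a median of 86.1 to 96.8 FPM at pH 7.4 and was 169, 117, 125, 134 and 112 FPM at pH 6.0, all above the pH 7.4 samples. The lines did not differ in this change past the threshold (-0.05, SE 0.20, adjusted p = 0.879). RefSeq names a pseudogene copy of Pck2 and a gene model that overlaps it, with which reads may be shared.

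Pck1 (ENSRNOG00000028616, chromosome 3), the cytosolic enzyme through which the acidotic tubule makes glucose, was listed at 0 in all 23 samples. So were 8209 of the 30452 genes, among them Crtc2, a coactivator found in most tissues, and Krt18 had at most 16 counts where its partner Krt8 reached 36236. A value of 0 in the table is therefore reported only as listed, and no fold is given for Pck1. Its promoter window, printed above, is the one with the cAMP response element.

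**Figure D3:**
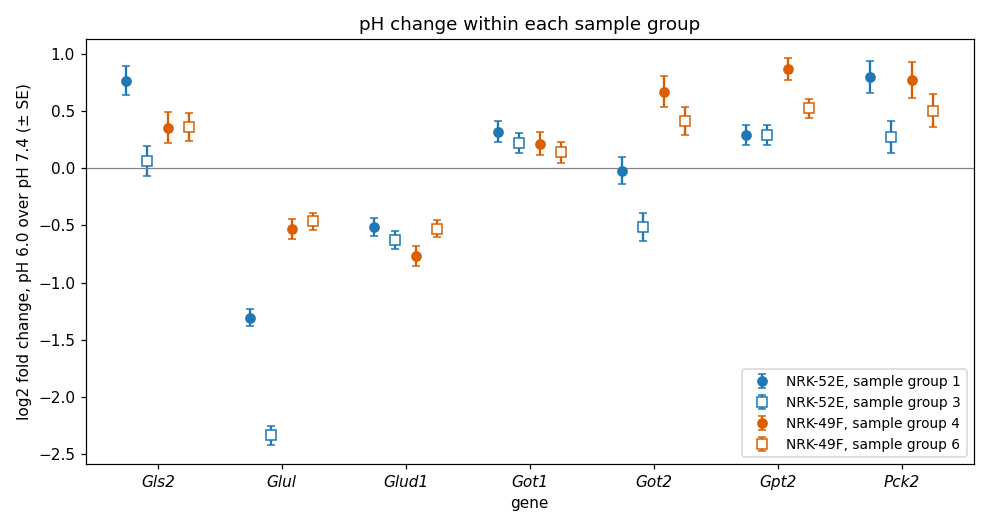
Log2 fold change at pH 6.0 over pH 7.4 with its SE for the 7 tested genes within sample groups 1 and 3 (NRK-52E, blue) and 4 and 6 (NRK-49F, orange). In NRK-52E, Gls2 is 0.77 in group 1 and 0.06 in group 3 and Glul is -1.30 and -2.33, while no gene of the set passed the test of the difference between groups 4 and 6.

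Across the set, the sample groups of NRK-52E gave unequal pH changes for 2 of the 7 genes, Gls2 and Glul, both lower in group 3, where 10.6% of all genes were called (3.78% higher and 6.87% lower). Within sample group 1, 6 of the 7 genes were called (4 higher, 2 lower; 48.9% of all genes, 18.8% higher and 30.1% lower), and within sample group 3, 5 of the 7 (2 higher, 3 lower; 57.4%, 23.8% higher and 33.6% lower). Within sample group 4, 5 of the 7 were called (3 higher, 2 lower; 23% of all genes, 12% higher and 11% lower), and within sample group 6, 6 of the 7 (4 higher, 2 lower; 21.2%, 10.3% higher and 10.9% lower). Sample groups 4 and 6 differed in the pH change of 0 of the 7 genes, and edgeR called 0% of all genes in that comparison, with 596 genes at an unadjusted p under 0.05 and 10 called by DESeq2. The sample group and anything done differently between groups 1 and 3 cannot be told apart.

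Between the lines, levels differed at both pH values. At pH 7.4, 5 of the 7 genes differed (68.8% of all genes, 35% higher and 33.9% lower), Glul 2.04-fold, Pck2 2.02-fold and Got1 1.86-fold higher in NRK-52E, and Gls2 and Glud1 lower at 0.325 and 0.327 times the NRK-49F level. Got2 (0.04) and Gpt2 (-0.01) lay within the error of 0 on the log2 scale. At pH 6.0, 6 of the 7 differed (75.5% of all genes, 36.6% higher and 38.9% lower): Got1 and Pck2 were 1.99-fold and 1.96-fold higher in NRK-52E, and Gls2, Glud1, Got2 and Gpt2 stood at 0.357, 0.342, 0.596 and 0.763 times the NRK-49F level. Glul, 2.04-fold higher in NRK-52E at pH 7.4, was at 0.877 times the NRK-49F level at pH 6.0 (adjusted p = 0.356). The pH change itself differed between the lines for 3 of the 7 genes, Glul, Got2 and Gpt2, all of them lower in NRK-52E relative to NRK-49F, against 41.4% of all genes (24.7% in that direction). For orientation, the pH groups did not overlap for 4 of the 7 genes in NRK-52E (38.6% of all genes) and for 6 of the 7 in NRK-49F (20.6%).

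For 6 members, the gene whose log2 level followed each most closely over the 23 samples was Lipa for Gls2 (Pearson r = 0.985), Gstm2 for Got1 (0.988), Ints3 for Got2 (0.944), Tkt for Gpt2 (0.943), Acy1 for Pck2 (0.980) and Krcc1 for Glul (0.982). These values describe likeness over samples that share their cell line and pH. Within NRK-52E alone they were between 0.904 and 0.996. Within NRK-49F alone they were between 0.680, for Krcc1 and Glul, and 0.970.

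For the pathway lists around the set, the shares of tested genes called are to be read against the 61.2% of all genes called in NRK-52E (24.7% higher, 36.6% lower, median -0.12) and the 28.9% in NRK-49F (14.5% higher, 14.4% lower, median 0.00). Of these, 15 plasma membrane carriers of glutamine, glutamate and related amino acids were tested, of which 3 rose and 5 fell in NRK-52E and 4 rose and 2 fell in NRK-49F. That is 53.3% and 40% called, and their median log2 change was 0.02 and 0.08. Slc3a2, the heavy chain of several amino acid exchangers, rose from 198 ± 10.97 to 584 ± 247 FPM in NRK-52E (1.56, SE 0.19, adjusted p = 1.49e-07) and from 229.5 ± 18.2 to 329 ± 42.6 FPM in NRK-49F (0.52, adjusted p = 0.0450), where the call was lost in 12 of the 23 fits that left out a sample (adjusted p of at most 0.119). The heavy chain of the cystine and dibasic amino acid carrier, Slc3a1, fell by 1.33 in NRK-52E (SE 0.21, adjusted p = 8.76e-06) and was at 0.12 in NRK-49F (adjusted p = 0.731). Slc7a5, a light chain that exchanges glutamine for large neutral amino acids, fell by 0.27 in NRK-49F (adjusted p = 0.0171, and 0.0557 without sample A043) and was at 0.02 in NRK-52E (adjusted p = 0.827). The apical tubule carrier gene Slc6a19 was listed at 0 in all samples.

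Of 8 mitochondrial carriers tested, 2 rose and 3 fell in NRK-52E and 3 rose and 0 fell in NRK-49F, or 62.5% and 37.5% (medians -0.16 and -0.01). Slc25a22, a glutamate carrier of the inner membrane, rose from 78.4 ± 9.81 to 189.8 ± 17.7 FPM in NRK-52E (1.27, SE 0.11, adjusted p = 3.43e-10) and from 76.9 ± 6.72 to 121 ± 23.6 FPM in NRK-49F (0.66, SE 0.11, adjusted p = 5.83e-05). The aspartate-glutamate carrier gene Slc25a13 fell by 1.43 in NRK-52E (SE 0.11, adjusted p = 1.81e-10), from 19.6 ± 1.10 to 7.26 ± 1.49 FPM. In NRK-49F its value was -0.23 (adjusted p = 0.130).

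Of 21 other enzymes that use or make glutamine or glutamate, 13 rose and 3 fell in NRK-52E (median 0.45) and 8 rose and 3 fell in NRK-49F (median 0.24), or 76.2% and 52.4% called. The share that was higher was 61.9% and 38.1%. Gclm, a subunit of the glutamate-cysteine ligase of glutathione synthesis, rose by 2.14 in NRK-52E (SE 0.14, adjusted p = 8.05e-12) and by 0.80 in NRK-49F (adjusted p = 0.000181). Ggt1, which splits glutathione outside the cell, rose from 51.9 ± 6.44 to 354 ± 42.1 FPM in NRK-49F (2.77, SE 0.24, adjusted p = 6.90e-09) and by 0.56 in NRK-52E (adjusted p = 0.0451, lost in 10 of the 23 fits that left out a sample, with at most 0.142). Psat1, the aminotransferase of serine synthesis, fell by 0.79 in NRK-52E (adjusted p = 1.06e-06) and rose by 0.84 in NRK-49F (adjusted p = 4.92e-06). Aldh4a1, which makes glutamate from proline, fell by 0.68 in NRK-49F (adjusted p = 0.000585) and was at 0.13 in NRK-52E (adjusted p = 0.391).

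The next list held genes of the citric acid cycle from 2-oxoglutarate on and of malate export. It also held the isocitrate dehydrogenase genes Idh1 and Idh2, whose step comes before 2-oxoglutarate. Of its 18 genes, 7 rose and 7 fell in NRK-52E and 7 rose and 3 fell in NRK-49F, or 77.8% and 55.6% (medians -0.01 and 0.19). The share that was lower was 38.9% and 16.7%. Idh1, the cytosolic isocitrate dehydrogenase, rose from 89.8 ± 7.60 to 276 ± 19.8 FPM in NRK-52E (1.62, SE 0.07, adjusted p = 1.10e-14) and fell by 0.28 in NRK-49F (adjusted p = 0.00540). Its mitochondrial counterpart Idh2 had 128 ± 12.2 FPM in NRK-49F at pH 7.4 and 0.801 ± 0.836 FPM in NRK-52E. Its change in NRK-52E was -1.98 (SE 0.56, adjusted p = 0.00360) and, without sample A021, in which the fibroblast genes were highest, -1.11 (adjusted p = 0.0475). Sdhd, a subunit of succinate dehydrogenase, rose by 0.63 in NRK-49F (adjusted p = 0.000266) and by 0.34 in NRK-52E (adjusted p = 0.0127).

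Only 4 further gluconeogenic genes were tested, of which 3 rose and 1 fell in NRK-52E and 2 rose in NRK-49F. Pc, pyruvate carboxylase, rose from 12.5 ± 1.53 to 50.4 ± 7.16 FPM in NRK-52E (2.01, SE 0.11, adjusted p = 3.72e-13) and from 33.9 ± 3.02 to 50.4 ± 6.53 FPM in NRK-49F (0.57, SE 0.11, adjusted p = 0.000300). Fbp1, the renal fructose bisphosphatase, had at most 3 counts in any sample.

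Genes through which ammonia and ammonium cross membranes were scarce in the table, and 3 of the 10 listed were tested. Rhag and Rhbg had at most 2 counts, Rhcg and Slc12a1 at most 1, the sodium-proton exchanger gene Slc9a3 at most 4 and the water channel gene Aqp8 at most 35, and Kcnj1 was listed at 0. Of the tested genes, Slc12a2, a sodium-potassium-chloride cotransporter that also carries ammonium, fell by 0.44 in NRK-52E (adjusted p = 0.00175) and by 1.01 in NRK-49F (adjusted p = 1.01e-06). The water channel gene Aqp1 rose by 1.04 in NRK-49F (SE 0.31, adjusted p = 0.0130). In NRK-52E it was at -0.15 (adjusted p = 0.678), with 0.59 within sample group 1 (adjusted p = 0.000992) and -1.51 within sample group 3 (adjusted p = 1.14e-08).

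Of 13 regulators tied to the renal response, 2 rose and 6 fell in NRK-52E and 2 rose and 2 fell in NRK-49F, or 61.5% and 30.8% (medians -0.42 and -0.11), close to the shares of all genes. Elavl1, an RNA-binding protein that stabilises messages, rose by 0.78 in NRK-52E (adjusted p = 3.60e-05) and was at 0.06 in NRK-49F (adjusted p = 0.794). Hnrnpd, which binds AU-rich messages, fell by 1.26 in NRK-52E (adjusted p = 1.45e-10) and by 0.48 in NRK-49F (adjusted p = 0.000970). Zfp36l1, which promotes the decay of such messages, rose by 0.32 in NRK-49F (adjusted p = 0.0434) and fell by 0.29 in NRK-52E (adjusted p = 0.0295). These calls were lost in 9 and 4 of the 23 fits that left out a sample, with adjusted p-values of at most 0.123 and 0.0818. Ptk2b, the kinase Pyk2, fell by 0.66 (adjusted p = 5.16e-05) and 0.55 (adjusted p = 0.00402). Atf4, whose type of element is printed for Got1 and Pck2, rose by 0.74 in NRK-52E (adjusted p = 4.32e-06) and was at 0.30 in NRK-49F (adjusted p = 0.0594). The latter passed without sample A038, A043 or A056 (adjusted p of 0.0310 to 0.0486).

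**Figure D4:**
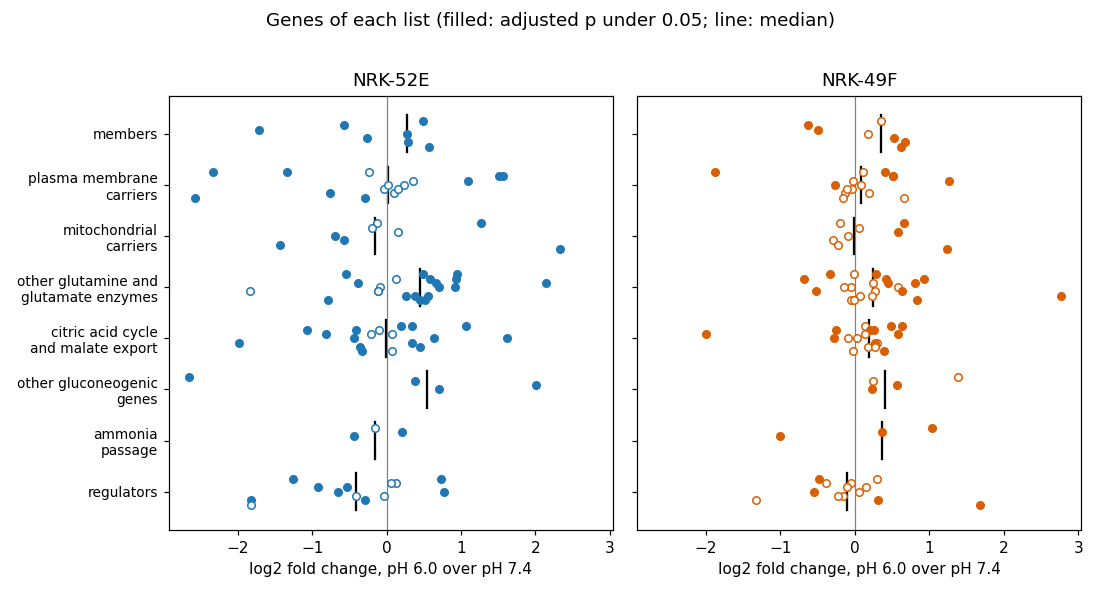
Log2 fold change at pH 6.0 over pH 7.4 of each tested gene of the set and of the 7 pathway lists (points; filled where the adjusted p is under 0.05), with the median of each list as a line, in NRK-52E (left) and NRK-49F (right). The 21 other glutamine and glutamate enzymes lie mostly to the right of 0 in NRK-52E, with a median of 0.45, while the regulators lie mostly to the left, with a median of -0.42.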

How the data were processed

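Paired reads of poly(A) RNA from 23 rat kidney cell samples underlie the deposited counts, which the authors made with HISAT2 2.1.0 and featureCounts on Ensembl exons, multi-mapping reads included and without normalization. The labels name the genome rn6 and the methods of the study rn7, and no strand setting is named. Of the per-sample columns 13 matched no label and were not used. Members and gene lists were chosen with earlier results of these data known.

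Counts were analysed in R 4.3.3 with edgeR 4.0.16: filterByExpr (minimum count 10, minimum total 15), TMM factors and the quasi-likelihood test over all 23 samples, with 4 conditions (line and pH) or 8 (sample group and pH). P-values were adjusted by the Benjamini-Hochberg method over 14777 genes, threshold 0.05. The SE is the log2 fold change divided by the square root of F. FPM are counts per 1000000 of scaled library size. The test was checked on simulated counts with the same spread for all genes and no effect of sample group. The check therefore does not cover sample groups that respond unequally. Named were the members, the largest called rise and fall of each pathway list in each line (mean of 5 FPM or more), the gene most like each member (mean of 1 FPM or more) and label-checking markers. Atf4, Anpep, Pdzk1, Cd68, Crtc2 and list genes at or near 0 were named after their values were seen. Some genes that this rule names are not reported here. Replicates differed by more than counting noise. Alternatives were other scalings, other filters, DESeq2 1.42.0, both tools, a threshold of 0.01, each line alone, the sample group as a block, each sample group, thinned libraries and leaving out each sample. Element matches used RefSeq windows of GRCr8.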

Additional observations from a re-analysis of the deposited data

Results flagged for a closer look

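The genes below had pH changes that differed, by the test of the difference in edgeR's quasi-likelihood fit with Benjamini-Hochberg adjustment, between the cell lines or between the sample groups of NRK-52E. Values are differences of log2 fold changes.

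Of the 9 genes of the set, Glul (-1.22), Got2 (-0.78) and Gpt2 (-0.38) changed less upwards or more downwards in NRK-52E than in NRK-49F. Among carriers the differences were 1.04 for Slc3a2, -1.45 for Slc3a1, 0.29 for Slc7a5, 0.62 for Slc25a22 and -1.20 for Slc25a13. Among enzymes they were 1.34 for Gclm, -1.63 for Psat1, -2.21 for Ggt1, 0.81 for Aldh4a1, 1.90 for Idh1, -2.27 for Idh2 (-1.40 without sample A021, adjusted p = 0.0311) and 1.44 for Pc. The ammonium and water passage genes Slc12a2 and Aqp1 were at 0.57 and -1.20, and the RNA-binding regulators Elavl1, Hnrnpd and Zfp36l1 at 0.71, -0.78 and -0.60. Atf4 was at 0.44. Among genes most like a member they were -0.72 for Ints3, -1.38 for Tkt and -0.84 for Krcc1.

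Between sample groups 3 and 1 of NRK-52E, as the change in group 3 minus that in group 1, the difference was -0.70 for Gls2 and -1.03 for Glul. It was 1.20 for Slc3a2, -0.54 for Slc25a13, 0.70 for Aldh4a1, -2.10 for Aqp1 and 0.63 for Elavl1, and -0.51 for Lipa, -0.36 for Ints3 and -0.58 for Krcc1. The Gls2 difference was lost without sample A026 (-0.59, adjusted p = 0.0611) or A036 (-0.64, adjusted p = 0.0522). Leaving out a sample also cost the call of the difference between lines for Slc7a5 (15 of the 23 fits), Atf4 (7 fits) and Aqp1 (without A042), and of the difference between sample groups for Slc25a13 (15 fits), Ints3 (17 fits) and Elavl1 (without A021, A025 or A037). No sample of a group stood apart from the others by the gap test for small groups.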

How the results depend on the processing

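Members called under the alternatives that left out a sample numbered 6 to 7 in NRK-52E, 4 to 5 in NRK-49F and 1 to 3 for sample groups 1 and 3. All genes called for the latter ranged from 1094 to 1877 and for groups 4 and 6 from 0 to 11. At a threshold of 0.01 the counts were 2661 genes in NRK-49F, and 1 member and 698 genes for groups 1 and 3. DESeq2 called 10 genes for groups 4 and 6. No paired analysis was possible because the samples of a line share no replicate code between pH values.

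On library sizes without scaling, the FPM means that moved by more than 1 SD were, at pH 7.4, Glud1 358, Got1 121, Gpt2 40.2 and Glul 425 in NRK-52E and Got1 57.5 and Glul 183 in NRK-49F, and, at pH 6.0, Glud1 239 and Gpt2 48.8 in NRK-52E and Gls2 25.3, Glud1 606 and Glul 127 in NRK-49F. Fitting NRK-52E alone moved the median change of all genes there from -0.12 to -0.00 and the share of calls that were higher from 40.3% to 48.9%.

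Some values changed sign. With RLE scaling and DESeq2 Gpt2 for groups 1 and 3 was -0.0012 and -0.0023, and Pck2 for the difference of lines 0.0017 and 0.0016. Gpt2 between lines at pH 7.4 was 0.014 with upper quartile scaling and 0.00026 in thinned libraries. Within groups, Slc3a1 (group 4) was -0.069, Aldh4a1 (group 1) -0.26, Aqp1 (group 1) 0.59, a called rise, and Elavl1 (group 4) -0.13. Over the fits that left out a sample, the values that changed sign ranged from -0.028 to 0.24 for Gls2 and from -0.13 to 0.061 for Pck2 (difference of lines), from -0.0059 to 0.086 for Got2 and from -0.050 to 0.027 for Gpt2 (lines at pH 7.4), from -0.043 to 0.069 for Gpt2 (groups 1 and 3), and, in NRK-52E, from -0.0027 to 0.067 for Slc7a5 and from -0.39 to 0.022 for Aqp1. None of these was past the threshold over all samples. The cause was not tested. Low counts limit Slc38a3, and nothing here shows why Pck1 is listed at 0.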
